A study of Mus musculus with 6 samples.

Results

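The cells described here are shallow barcodes of the mouse ileal epithelium that carry transcripts of Areg, Edn1 and Apob. A barcode was a member when it had at least 1000 and fewer than 10000 unique molecular identifiers (UMIs, each standing for 1 captured transcript), at least 500 detected genes and at most 20% of its UMIs in mitochondrial genes. It also had to show at least 3 of the 6 genes Areg, Pfkfb3, Edn1, Creb3l3, Apob and Myo15b, with under 1% of its UMIs in the 6 goblet genes Muc2, Fcgbp, Clca1, Zg16, Tff3 and Agr2. This rule gave 2660 members among 11721 barcodes within the same depth, gene and mitochondrial limits, which are called the window below. The 7620 window barcodes that met the goblet limit but were not members are called the low-goblet rest.

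Droplet-based single-cell RNA-seq was performed on epithelial cells released from ileal crypts and sorted for EpCAM, from 3 libraries of Fpr2f/f mice (floxed Fpr2, genotype label WT) and 3 of Fpr2VKO mice. Fpr2VKO mice carry the same floxed alleles with a Cre recombinase under the Villin promoter, which is active across the intestinal epithelium, and all mice are on the C57BL/6J background. Fpr2 encodes formyl peptide receptor 2, and the comparison asks how its loss from the epithelium changes these cells. By the methods the mice were 8 to 12 weeks old and matched for sex and age, with 3 mice per genotype in this experiment. The labels give no treatment and do not tie a library to a mouse, so p-values measure the spread between these libraries.

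Enterocytes are the absorptive cells of the intestine. They leave the crypt, stop dividing and build a brush border of microvilli that carries digestive enzymes and transporters, and they pack dietary fat into lipoproteins around the apolipoprotein encoded by Apob. Creb3l3 encodes a transcription factor of lipid metabolism, Myo15b a microvillus myosin-like protein, Pfkfb3 an enzyme that sets the rate of glycolysis, Areg the epidermal growth factor receptor ligand amphiregulin, and Edn1 the peptide endothelin 1.

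The 6 libraries held 90142126 to 189516114 UMIs. Barcodes with fewer than 100 UMIs, used here as a measure of free RNA in the droplets, took 7.25% to 13.1% of them. At least 1000 UMIs and 500 genes were reached by 83002 barcodes, of which 17104 also met the mitochondrial limit, including 5383 of 10000 or more UMIs that are called deep. No UMI of Fpr2 was found in members, window, deep barcodes or free RNA of any library, so the targeted gene could not check the labels. In members, 3 counts would correspond to 0.590 to 4.05 CPM, the UMIs of a gene scaled to a common total per library. Library 2 of Fpr2f/f held 44.1% of all members. Of the 2660 members, 98 were scored as doublets, beside 294 of the 11721 window barcodes and 428 of the 17104 barcodes within the mitochondrial limit. Barcodes were matched between libraries by their position in the matrix, and 1 position was a member in more than 1 library.

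The rule genes were seen in members as follows. The rule chose on these values, so they are a description. Areg (chr5:91139599-91148432, mm10) had a UMI in 81.7% to 92.3% of members in a library, against 24.4% to 40.7% of the low-goblet rest and 6.82% to 18.0% of 243 lymphocyte barcodes, although some lymphocytes make amphiregulin themselves. Edn1 (chr13:42301476-42307990) was seen in 67.2% to 83.6% of members and 0% to 13.6% of lymphocyte barcodes. Myo15b (chr11:115858406-115892603) was seen in 74.9% to 84.2% and Apob (chr12:7977648-8016835) in 57.1% to 68.2% of members. Creb3l3 (chr10:81084324-81098874) and Pfkfb3 (chr2:11471433-11554077) were the rarest, in 25.2% to 38.8% and 16.7% to 27.4% of members. Areg and Edn1 together were found in 70.6% of members.

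Among low-goblet window barcodes, 2214 showed 2 of the 6 genes and lay just outside the rule. Exactly 3 were shown by 1397, which was 52.5% of members, 4 by 758, 5 by 366 and all 6 by 139. At the goblet limit, 22 members had 0.8% to under 1% of UMIs in goblet genes, and 14 barcodes with at least 3 rule genes were left out at 1% to under 1.2%. In all, 176 barcodes with at least 3 rule genes exceeded the goblet limit.

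Summed over all members of a library, Areg reached 993 ± 200 CPM (SD, n = 6) and was 191 ± 55.7 CPM in the low-goblet rest and 189 CPM in free RNA. Its 6 libraries were 1279.7, 1126 and 694 CPM for Fpr2f/f and 964, 896 and 998 CPM for Fpr2VKO, and the genotypes overlapped. Apob stood at 360.1 ± 74.2 CPM in members and 37.3 ± 5.28 CPM in the rest. Creb3l3 had the highest mean ratio of members to rest, 3.55 ± 0.35 on the log2 scale of CPM + 5.

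The label of enterocytes was checked against markers outside the rule. All 17 enterocyte markers at a mean of 20 CPM or more were higher in members than in the low-goblet rest in 6 of 6 libraries, with a median log2 ratio of 1.71, against a median of -0.03 over 6926 genes. Of these 6926 genes, 25.6% were higher and 24.9% lower in members in 6 of 6 libraries by any fold, and 1.89% were at least 2-fold higher and 0.78% at least 2-fold lower. The counts of genes higher or lower in all libraries given below stand beside these shares. The rule chose members among the same cells, so these ratios are no test. Without both small kinds of members described below, the median log2 ratio of the enterocyte markers was 1.48. The markers held 0.417% to 0.840% of member UMIs, and 82.9% to 93.4% of members showed at least 3 of 18, against 44.8% to 67.8% of the low-goblet rest. Such shares do not set members apart from every other cell type by themselves, since at least 3 of 10 Paneth markers were seen in 13.9% to 97.0% of members (median 91.4%) and 20.1% to 92.3% of the rest (median 83.9%).

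Genes of fat absorption were higher in members than in the low-goblet rest. Of 23 genes of lipoprotein assembly and fat absorption outside the rule, 21 were higher than in the low-goblet rest in all 6 libraries, 10 of them at least 2-fold, with a median log2 ratio of 1.24. Mttp, which loads lipid onto the Apob protein, was 380.1 ± 71.9 CPM in members and 112 ± 18.0 CPM in the rest. Dgat1, which makes triglyceride, was 508 ± 77.4 and 222 ± 27.9 CPM. The retinol-binding Rbp2 was 192 ± 72.9 and 44.8 ± 16.0 CPM. Deep barcodes that meet the gene limits had more Rbp2, at 256 CPM, and members were higher in 1 of 6 libraries. Fabp1 was 313 CPM in members and 783 CPM in those deep barcodes, with members higher in 0 of 6. Apoa4 was higher in members in 6 of 6, before the small kinds of members described below are set aside. All 11 genes of fatty acid oxidation and PPAR alpha targets were higher in all 6 libraries, by less, with a median of 0.55.

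Brush border genes showed the same direction. All 14 brush border hydrolases and all 14 microvillus genes were higher in members in all libraries, with median log2 ratios of 1.48 and 1.16. Anpep, an aminopeptidase of the brush border, was 534 ± 86.0 CPM in members, 116 ± 28.3 CPM in the rest and 189 CPM in free RNA. The disaccharidase gene Sis was 860 ± 270 CPM in members, 249 ± 80.8 CPM in the rest and 258 CPM in free RNA. Krt20, a keratin of differentiated epithelium, was 479.6 ± 113 CPM in members and 117 ± 25.6 CPM in the rest. Among 10 genes of the villus bottom, 9 were higher in all libraries, and among 8 of the villus middle, 7, while 7 of 12 of the villus top were and 1 was lower (median log2 ratio 0.61). Without both small kinds of members described below, 6 of the 12 villus-top genes were higher and 2 lower, with a median of 0.31.

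Transporters and receptors followed. Of 8 transporter genes of the villus middle, 7 were higher in all libraries (median log2 ratio 1.35), among them Slc5a1, the sodium-glucose cotransporter, at 267 CPM in members and 84.5 CPM in the rest, and Slc15a1, a peptide transporter, at a log2 ratio of 1.81. Of 7 ileal bile acid genes, 6 were higher (median 1.29), with Nr1h4, the bile acid receptor, at a log2 ratio of 1.14 and Slc10a2, the ileal bile acid importer, at 1.42. Abcc2, an export pump of the same list, was 241 CPM in members and 59.4 CPM in the rest. Of 13 tight junction genes, 12 were higher (median 0.72) and the crypt claudin gene Cldn2 was lower (-0.35). Among other ligands of the receptor of Areg, Hbegf was 433 CPM in members and 241 CPM in the rest and Ereg 29.9 and 5.47 CPM, while Egfr, the receptor, was lower in all libraries at 31.4 and 39.2 CPM.

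Markers of stem, cycling and Paneth cells were lower in members. All 7 stem cell markers, 12 transit-amplifying markers and 10 Paneth markers were lower in all libraries, with median log2 ratios of -1.09, -0.73 and -1.84, and 6 of the 7 stem cell markers were without both small kinds of members described below. Of 9 enteroendocrine markers 3 were lower in all libraries (median -1.89), and of 7 tuft cell markers 3 (median -0.99), with none higher in all. All 10 lymphocyte markers at a mean of 20 CPM or more were lower in all libraries (median -2.62). Transcripts of these cells were nonetheless counted in members. Defa24, a Paneth cell defensin whose close copies the counting could split, was 2674 CPM in members, 9118 CPM in the rest and 7597 CPM in free RNA. Lyz1, the Paneth cell lysozyme, was seen in 24.9% to 92.8% of members and in 26.1% to 83.3% of lymphocyte barcodes. Lymphocyte barcodes are deeper than members, and thinned to 1000 UMIs a barcode the median shares over libraries were 39.1% of members, 40.6% of the low-goblet rest and 24.3% of lymphocyte barcodes. Of 19 cell cycle genes, some of which are also transit-amplifying markers, 17 were lower, with a median of -0.72.

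**Figure D1:**
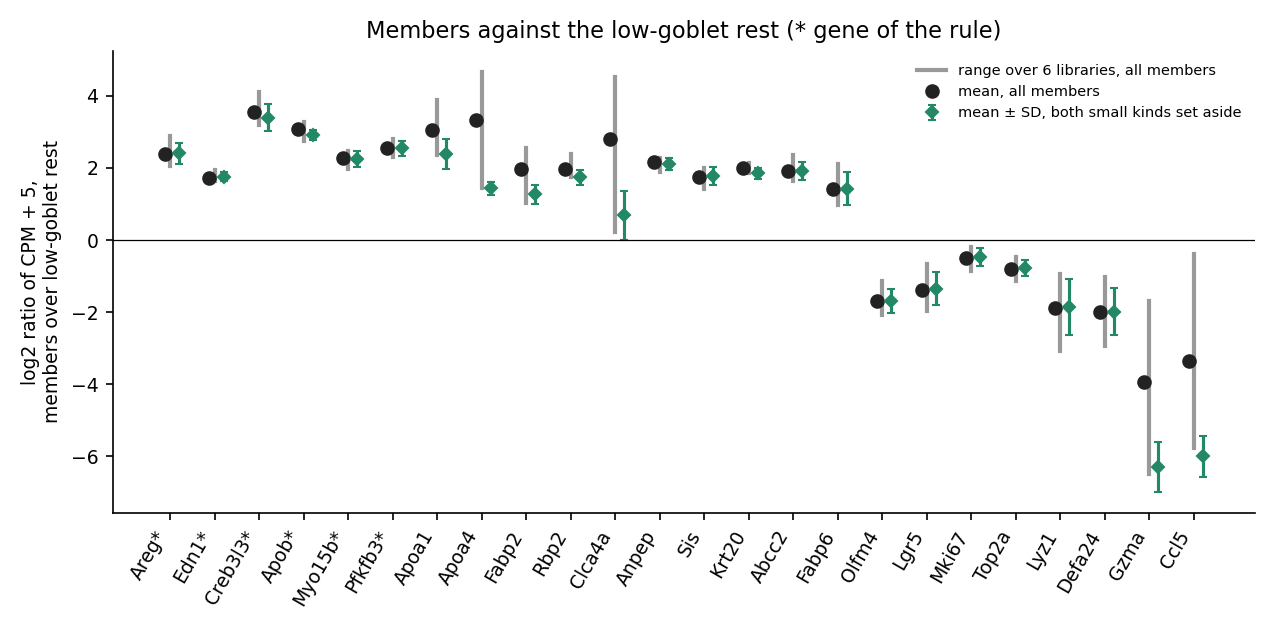
Log2 ratio of CPM + 5 in members over the low-goblet rest for 24 genes, with the range over 6 libraries (grey line), the mean (black point) and the mean ± SD once 2 small kinds of members are set aside (green). The ranges of the rule genes Creb3l3 and Apob start at 3.18 and 2.76, Gzma and Ccl5 have the lowest means of the genes drawn, and Apoa4 drops from 3.32 to 1.43 with those members set aside.

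A deeper barcode has more chance to show a rule gene. The median UMIs of a library had a median of 3340 in barcodes with none of the 6, 3947 with 2, 3967 with 3, 3479 with 4 and 3834.5 with all 6, once both small kinds described below are set aside, and the part of depth in the count of rule genes was not tested. Thinned to 1000 UMIs a barcode, Sis, which is outside the rule, was found in a median of 42.5% of members and 16.0% of the low-goblet rest in a library, and Krt20 in 35.3% and 9.62%. The barcodes were still those chosen at full depth.

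Barcodes were next ordered by how many of the 6 rule genes they showed, with both small kinds described below set aside. Sis went from 158 CPM in barcodes with none to 1112 CPM in those with all 6, Anpep from 62.9 to 1073 CPM and Krt20 from 70.8 to 773 CPM. Olfm4, a crypt stem cell marker, went from 755 to 97.0 CPM. The mean of Mki67, a proliferation marker, was 183 CPM with none of the genes, 219 CPM with 2 and 45.5 CPM with 6. A library had as few as 14 barcodes with 5 of the genes and 5 with all 6, and the ordering uses the genes that chose the members, so it is a description without a test.

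**Figure D2:**
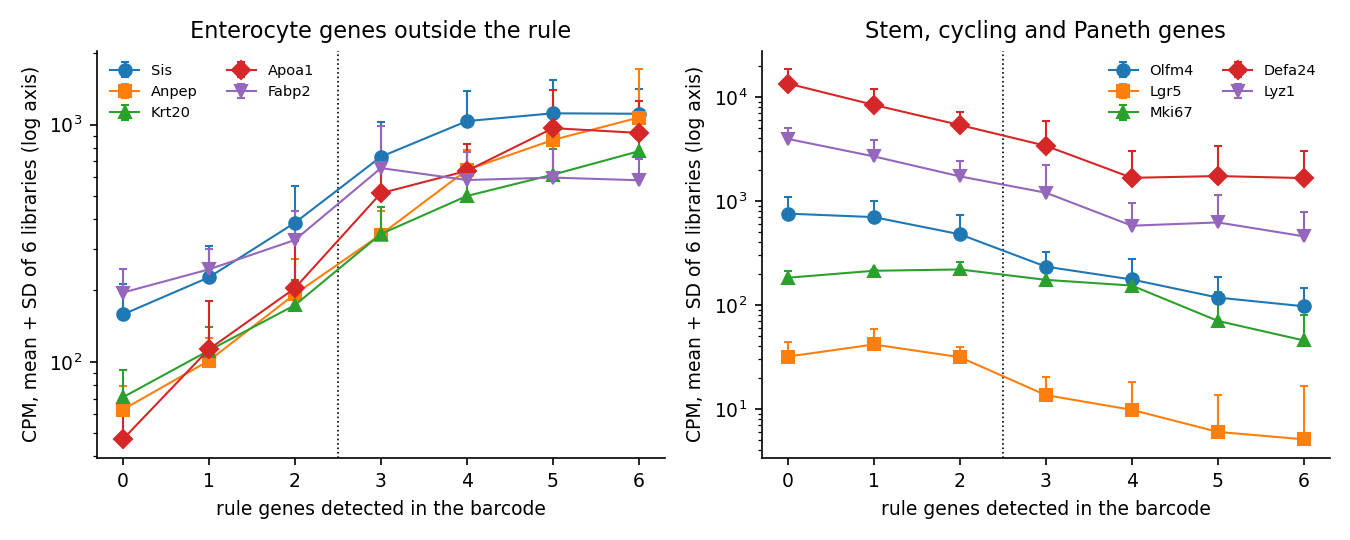
Mean CPM with the upward SD over 6 libraries (log axis) of enterocyte genes and of stem, cycling and Paneth genes, by the number of rule genes detected, with the limit for members dotted. Sis, Anpep and Krt20 are higher in barcodes with all 6 genes than in those with none, and Defa24, Lyz1 and Olfm4 are lower, although not every step between them keeps that order.

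A pair of small kinds of members stood apart, and both were found after the values had been seen. The first is 12 members with at least 3 of 11 lymphocyte markers, 6 in each genotype, with counts of 0, 4 and 2 in the Fpr2f/f and 3, 2 and 1 in the Fpr2VKO libraries. Lymphocyte markers took 4.03% of their UMIs, and enterocyte markers 0.235%, less than the 0.492% in members without both kinds. Gzma, a granzyme of cytotoxic lymphocytes, was 13117 CPM in them, Ccl5, a T cell chemokine, 17739 CPM, and Ptprc, the leukocyte antigen CD45, 1557 CPM. These genes are among the 11 markers that chose these members, so the marker share and these levels are a description and no test. These values pool all 12, whose part differed by library. Lymphocyte markers took 0.00366% of member UMIs in Fpr2f/f library 3 and 0.0031% without both kinds. The same shares were 0.0205% and 0.002% in Fpr2f/f library 2, and 0.0881% and 0.00319% in Fpr2VKO library 3. The EpCAM sort is a step that removes lymphocytes. The doublet score marked 0 of these 12 members and 294 of the 11721 window barcodes. The number marked in a library was set in advance, so a count of 0 among 12 cannot tell whether they are doublets.

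The second is 17 members with at least 10 UMIs of Apoa4, an apolipoprotein made in absorptive enterocytes. They came from 4 libraries (4 and 7 in Fpr2f/f libraries 1 and 3, 4 and 2 in Fpr2VKO libraries 2 and 3) and from none of Fpr2f/f library 2 or Fpr2VKO library 1. None showed more than 4 rule genes. Apoa4, the gene that chose them, stood at 11699 CPM in them and at 30.4 CPM in members without both kinds, which is a description. Apoa1, which did not choose them, stood at 29942 and 499 CPM. The villus-top genes Ada, Nt5e and Slc28a2, which handle purines, were 6740, 1327 and 2634 CPM there and 5.66, 0.456 and 4.11 CPM in the other 2631 members. Areg was the opposite, at 72.0 CPM against 1039 CPM, and Edn1 at 20.6 against 682 CPM. Ribosomal protein genes took 1.2% of their UMIs, against 9.31%. Enterocyte markers, Apoa4 among them, took 9.19%, against 0.492%.

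These 17 members weigh on any sum of apolipoprotein UMIs. They held 77.3% of the Apoa4 UMIs of all members, a high share being set by choosing them on Apoa4. Of the other genes they held 38.9% of the member UMIs of Fabp2, 34.6% of Apoa1, 8.16% of Apob and 0.0613% of Areg. Apoa4 was 143, 21.8 and 335 CPM in Fpr2f/f and 43.7, 372 and 382 CPM in Fpr2VKO members, lowest in the 2 libraries without Apoa4-rich barcodes. Without both kinds, its mean fell from 216 to 35.3 CPM, beside 35.0 CPM in deep barcodes that meet the gene limits. Of the lipoprotein list, 21 of 23 genes were higher than in the rest in all libraries without both kinds too. Over all genes, 25.3% were then higher and 24.4% lower in all libraries by any fold, 1.72% at least 2-fold higher and 1.21% at least 2-fold lower.

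**Figure D3:**
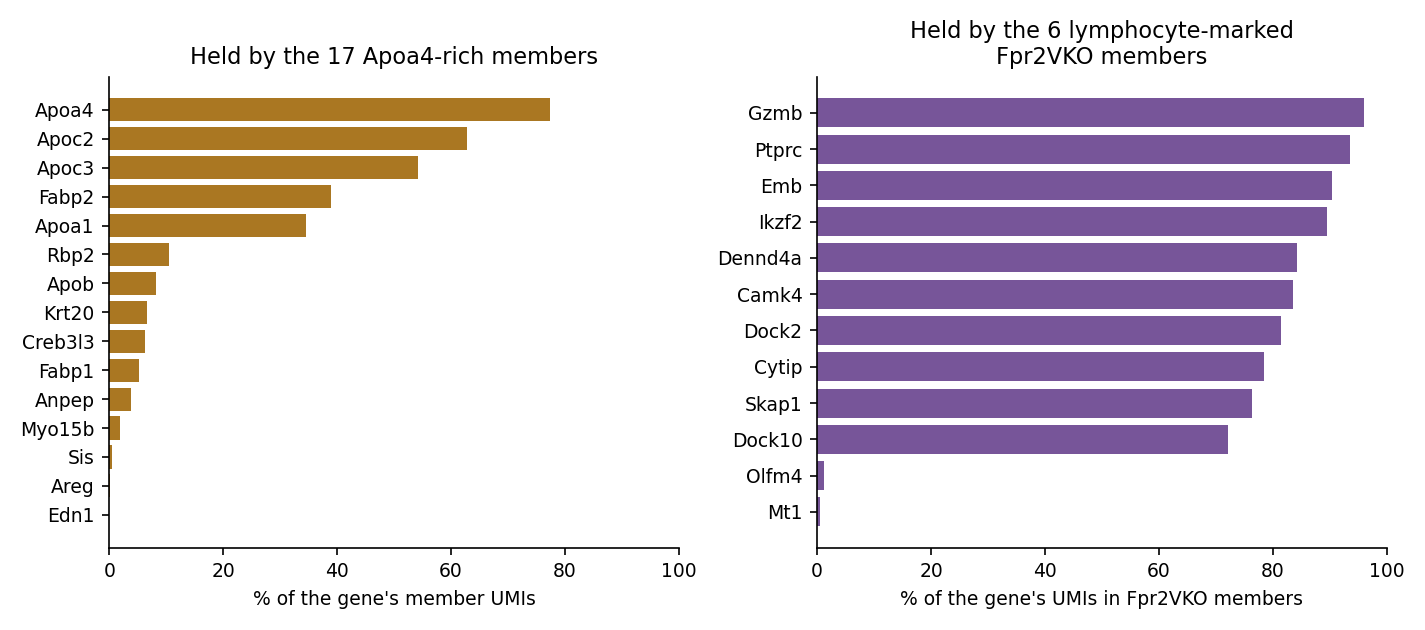
Left, percent of each gene's member UMIs held by the 17 Apoa4-rich members, which were chosen on Apoa4. Right, percent of the Fpr2VKO member UMIs held by the 6 lymphocyte-marked Fpr2VKO members, for the 12 genes called higher in Fpr2VKO members at a mean of 20 CPM or more there, with 10 genes above 50%.

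Members were also set beside the 668 barcodes of the low-goblet rest highest in Fabp6, the ileal bile acid binding protein. The rule kept barcodes with 3 or more rule genes out of that set, so rule genes are not compared, and 361 members reached the same Fabp6 limit. Rbp2 was 192 CPM in members against 24.9 CPM in the Fabp6-high barcodes. Fabp6 itself was 1246 against 5343 CPM, and the brush border protease gene Mep1a was 43.3 against 134.6 CPM. Gm26917, a long noncoding RNA, was 45620 CPM in members, 41201 in the low-goblet rest and 11082 CPM in the Fabp6-high barcodes, which were themselves chosen on Fabp6. In deep barcodes that meet the gene limits Gm26917 was 3237 CPM, and in free RNA 15894 CPM. The gene Celf2 was 9284 CPM in members, 5080 in the low-goblet rest, 1661 in the Fabp6-high barcodes and 517 in those deep barcodes.

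Members made up 19.5%, 31.5% and 17.8% of the window barcodes in Fpr2f/f and 26.2%, 13.6% and 15.6% in Fpr2VKO, so the genotypes overlapped. Means were 22.9% ± 7.48 (SD, n = 3) and 18.5% ± 6.79, a difference of -4.43 percentage points that did not pass (two-sided exact permutation test, p = 0.5, where the smallest possible with 3 against 3 is 0.1). It was -0.144 without Fpr2f/f replicate 2, -8.31 without Fpr2VKO replicate 1 and -2.01 without Fpr2VKO replicate 2. The 95% exact (Clopper-Pearson) interval of a library's share, such as 17.7% to 21.3% in Fpr2f/f library 1, covers counting error only. In barcodes of at least 1000 and under 2000 UMIs the shares were 15.3% ± 5.62 and 8.99% ± 2.09 (exact permutation p = 0.3). A mitochondrial limit of 10% gave 14.5% ± 3.40 and 6.14% ± 1.61 (exact permutation p = 0.1), a difference of -8.34 percentage points, without overlap. This limit kept 40, 167 and 67 members in the Fpr2f/f and 12, 18 and 6 in the Fpr2VKO libraries. Among deep barcodes, the share that met the gene limits was higher in Fpr2VKO, 39.6% ± 5.73 against 34.5% ± 7.31 (exact permutation p = 0.4). These shares were taken at full depth, where deep barcodes have more chance to show a rule gene. Shares were also taken after thinning to 1000 UMIs a barcode, with 2 of 6 rule genes required. Deep barcodes then gave 2.996% ± 1.76 in Fpr2f/f and 2.858% ± 0.529 in Fpr2VKO. Window barcodes gave 20.2% ± 5.74 and 13.5% ± 3.21 (exact permutation p = 0.2).

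**Figure D4:**
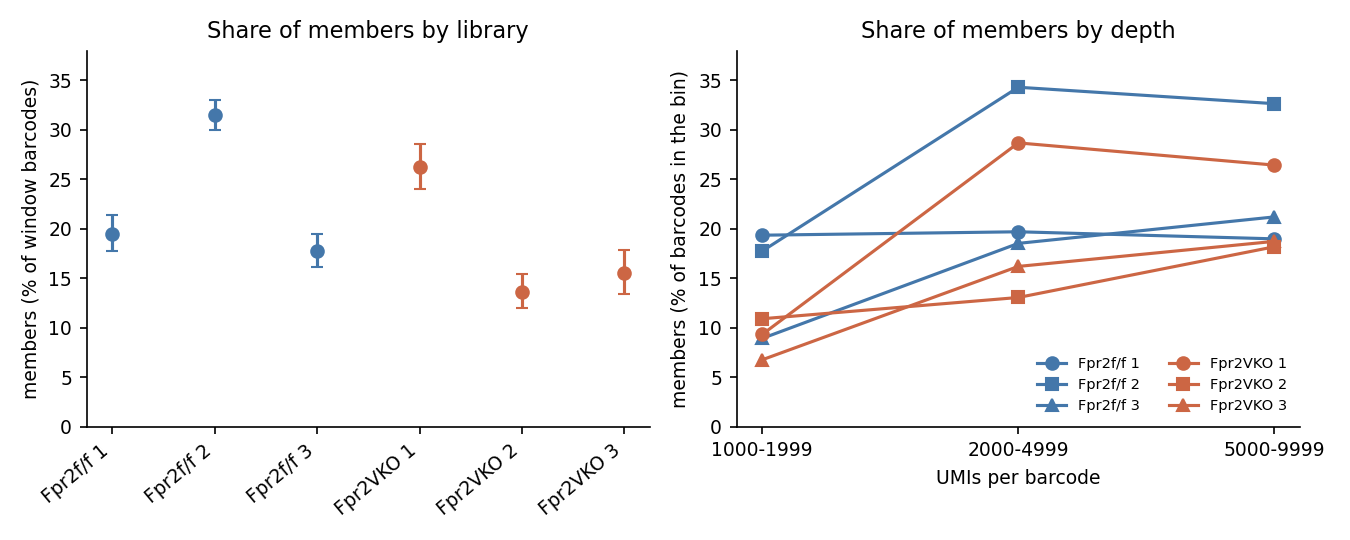
Left, share of window barcodes that were members in each library with 95% exact binomial intervals. Right, the share in 3 bins of UMIs per barcode, where the genotypes overlap in each bin and Fpr2f/f library 2 stands highest from 2000 UMIs.

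The quality of members was compared between genotypes. The median UMIs of members ran from 2302 to 4287 in a library. Mitochondrial genes took a median of 15.1% ± 0.431 (SD, n = 3) of UMIs in Fpr2f/f and 16.5% ± 0.356 in Fpr2VKO members, without overlap (exact permutation p = 0.1, 0.5 after adjustment over 5 measures). The rule caps this measure at 20%, and with a limit of 40% the medians were 25.1% ± 1.24 and 29.0% ± 0.444, also without overlap, a difference of 3.93 percentage points against 1.36. Ribosomal protein genes took 8.66% ± 0.751 and 9.56% ± 0.701 (exact permutation p = 0.2), and enterocyte markers 0.654% ± 0.216 and 0.697% ± 0.161 (exact permutation p = 0.7). Enterocyte markers were lowest in Fpr2f/f library 2 (0.417%) and Fpr2VKO library 1 (0.511%), which hold no Apoa4-rich member. The part of the mitochondrial difference in the gene results below was not tested.

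Between genotypes, 23 of 9311 genes tested in members passed an adjusted p of 0.05 (0.247%; 19 higher in Fpr2VKO, 0.204%, and 4 lower, 0.043%), and 695 had an unadjusted p under 0.05. Groups did not overlap in CPM for 13.3% of the genes tested. Mt1, which encodes a metallothionein that binds zinc and copper, had the smallest adjusted p. Of the 19 higher genes, 16 had 51.2% to 96.0% of their Fpr2VKO member UMIs in the 6 lymphocyte-marked members of Fpr2VKO. They include Ptprc, Ikzf2, a transcription factor of T cells, and Gzmb, a granzyme (log2 3.42, adjusted p = 0.0471, but 0.328 without Fpr2VKO replicate 1, 0.0613 without Fpr2f/f replicate 3, 0.119 without doublet-scored barcodes and 0.310 with the replicate block). With 2 of 6 rule genes required, Ptprc, Ikzf2 and Gzmb had adjusted p-values of 0.233, 0.682 and 0.512, and Ikzf2 had 0.0695 at a mitochondrial limit of 40%. Leap2, an antimicrobial peptide gene, was the other gene called higher, at 4.8, 1.0 and 1.2 CPM against 8.7, 11.2 and 14.8 CPM (adjusted p = 0.0334), with 10.4% of its member UMIs in the Apoa4-rich members. It was not called by DESeq2 (adjusted p = 0.0883), with the replicate block (0.13), with 2 of 6 rule genes (0.214), at a mitochondrial limit of 40% (0.355), or without any 1 library other than Fpr2f/f replicate 1 (0.142 to 0.306). Without the 12 lymphocyte-marked members, 4 of 9314 genes were called (0.0429%), Mt1 and Olfm4 higher (0.0215%) and Rims2 and Gm48099 lower (0.0215%), and 7 of the 23 were still tested.

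Ptprc was 1.0, 2.6 and 1.8 CPM in Fpr2f/f members and 34.4, 49.7 and 29.7 CPM in Fpr2VKO members. Lymphocyte markers summed to 0.00163% to 0.0205% of member UMIs in Fpr2f/f and 0.0526% to 0.0881% in Fpr2VKO, and to 0.00166% to 0.0031% and 0.00208% to 0.00454% without both kinds. In the whole window, 1.28%, 1.40% and 2.56% of Fpr2f/f barcodes and 4.51%, 2.99% and 1.78% of Fpr2VKO barcodes had at least 3 lymphocyte markers (exact permutation p = 0.2).

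Mt1 (chr8:94179082-94180327) was 201, 184 and 222 CPM in the Fpr2f/f and 1369, 1519.6 and 1525 CPM in the Fpr2VKO members. The groups did not overlap, and the log2 fold change was 2.82 ± 0.16 (SE; edgeR adjusted p = 3.68e-12), or 7.04-fold. It had a UMI in 29.8%, 41.3% and 48.0% of Fpr2f/f members and 95.8%, 94.3% and 95.8% of Fpr2VKO members. Free RNA moved too, at 148, 161 and 236 CPM against 865, 934 and 1111 CPM, and so did lymphocyte barcodes, of which 4.35%, 21.3% and 18.0% against 52.5%, 38.6% and 61.1% had a UMI. The part of free RNA in the member values was not tested. The low-goblet rest gave 224, 230.1 and 300.4 CPM against 856, 949 and 1108 CPM (log2 1.90 ± 0.15, adjusted p = 5.94e-06). In the rest, Mt1 was the 1 gene called of 12358 (0.00809%). The change in members was larger than in the rest by 0.92 ± 0.10 on the log2 scale (SE; edgeR interaction, adjusted p = 9.6e-08), and by 0.69 with an adjusted p of 0.439 against Fabp6-high barcodes. In that interaction 4 of 13104 genes passed (0.0305%), Mt1, Ptprc and Zeb1 with a higher (0.0229%) and Abcb1a with a lower value in members (0.00763%).

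The neighbouring metallothionein gene Mt2 (chr8:94172664-94173568) was 24.0, 19.5 and 27.5 CPM in Fpr2f/f and 25.1, 43.5 and 52.6 CPM in Fpr2VKO members, with a log2 fold change of 0.68 ± 0.26 (SE) that did not pass (adjusted p = 0.482). The zinc exporter gene Slc30a1 was 41.3, 20.5 and 31.8 CPM against 29.0, 26.1 and 29.7 CPM.

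Olfm4 (chr14:79984081-80023139) was 103, 116 and 144 CPM in Fpr2f/f and 291, 239 and 293 CPM in Fpr2VKO members, without overlap, a log2 fold change of 1.13 ± 0.16 (SE; edgeR adjusted p = 0.000214). In free RNA it was 251, 265 and 297 CPM against 546, 646.5 and 620.1 CPM, and in the low-goblet rest 353, 444 and 469 CPM against 641, 1031 and 967 CPM (log2 1.00 ± 0.18, adjusted p = 0.147). It was seen in 14.2% to 22.6% of Fpr2f/f and 31.4% to 52.4% of Fpr2VKO members, against 4.35% to 10% and 18.2% to 50% of lymphocyte barcodes. Thinned to 1000 UMIs a barcode, the mean shares were 7.51% of Fpr2f/f and 17.5% of Fpr2VKO members and 1.42% and 12.6% of lymphocyte barcodes. The part of free RNA in the member values was not tested. At a mitochondrial limit of 10% the log2 value of Olfm4 was -0.05, with an adjusted p of 0.963. That limit left 12, 18 and 6 members in the Fpr2VKO libraries, and sums over so few cannot decide whether the difference holds there. The call of Olfm4 was also lost with 2 of 6 rule genes (1.05, adjusted p = 0.117).

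The 4 genes called lower in Fpr2VKO members serve secretion, sugar and protein metabolism or encode no known protein. Rims2 (chr15:39198261-39684372), a scaffold protein of regulated secretion, was 49.9, 29.9 and 22.0 CPM against 6.6, 6.2 and 6.7 CPM, a log2 fold change of -2.36 ± 0.35 (SE; adjusted p = 0.000481). The call of Rims2 was lost with 2 of 6 rule genes (-1.37, adjusted p = 0.211), with 4 of 6 (-1.93, adjusted p = 0.20) and at a mitochondrial limit of 40% (-1.93, adjusted p = 0.264). Gm48099 (chr14:19271274-19282822), a long noncoding RNA, was 65.3, 83.0 and 62.9 CPM against 32.3, 32.3 and 22.9 CPM (-1.32, adjusted p = 0.00144), and in the low-goblet rest 79.0, 125 and 76.0 against 31.2, 38.3 and 37.0 CPM. It was not called with 4 of 6 rule genes (-1.06, adjusted p = 0.266) or after thinning to 1000 UMIs (-1.42, adjusted p = 0.0624). Hkdc1 (chr10:62383137-62422491), a hexokinase-like gene, was 251, 248 and 201 CPM against 142, 137 and 138 CPM (-0.80 ± 0.16, adjusted p = 0.0157). Ero1l (chr14:45283087-45318771), an oxidase of disulfide formation, was 98.9, 88.6 and 86.7 CPM against 54.1, 48.5 and 58.0 CPM (-0.81 ± 0.17, adjusted p = 0.0331). Without the lymphocyte-marked members the log2 values were -0.78 for Hkdc1 (adjusted p = 0.0848) and -0.80 for Ero1l (0.127), and without both small kinds -0.78 (0.0473) and -0.79 (0.149). Leaving out Fpr2f/f replicate 1 or any 1 of the Fpr2VKO libraries also gave adjusted p-values of 0.0548 to 0.132 for Hkdc1 and 0.0808 to 0.273 for Ero1l, with the direction kept. Neither was called with 4 of 6 rule genes (0.508 and 0.164), at the highest of the lower limits on UMIs tried (0.186 and 0.231) or after thinning (0.178 and 0.532), nor Hkdc1 at a mitochondrial limit of 10% (0.338), nor Ero1l with 2 of 6 rule genes (0.0982) or by DESeq2 (0.111). Ero1l was seen in 17.4% to 33.3% of lymphocyte barcodes and 17.1% to 31.1% of members, or a median of 4.27% and 7.35% after thinning.

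**Figure D5:**
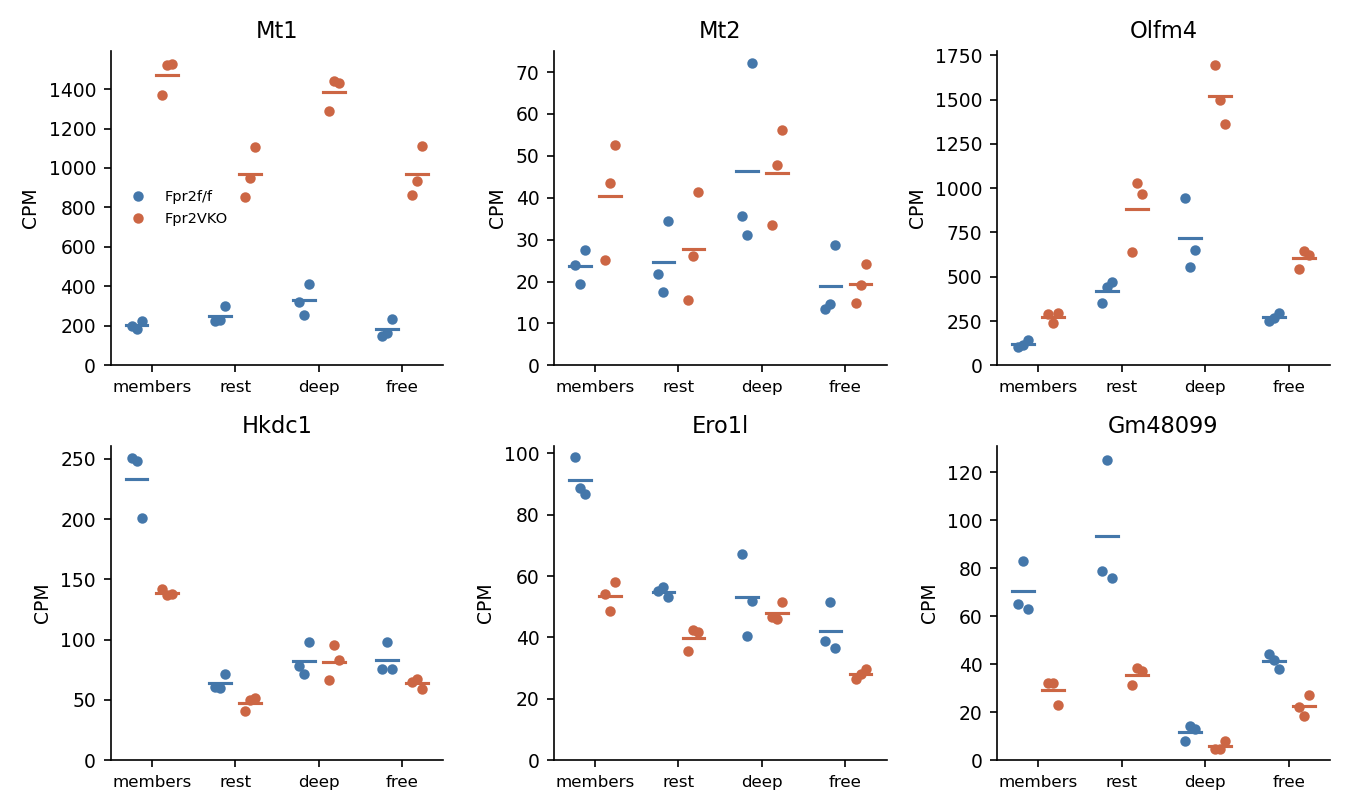
CPM of 6 genes in members, the low-goblet rest, deep barcodes that meet the gene limits and free RNA, with 1 point per library and a bar at the mean of 3. Mt1 is higher in Fpr2VKO in all 4 kinds of barcode, Mt2 overlaps in members, and Hkdc1 and Ero1l are highest in Fpr2f/f members.

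The rule genes were compared by genotype over the whole window, which they did not choose. In this fit 1 of 13370 genes was called (0.00748%; 1068 at an unadjusted p under 0.05), which was Mt1 (log2 2.19, adjusted p = 4.85e-07), and DESeq2 called 27 (0.202%), 16 higher (0.12%) and 11 lower (0.0823%). Myo15b was 160, 197 and 185 CPM in Fpr2f/f and 142, 121 and 119 CPM in Fpr2VKO window barcodes, without overlap, at -0.55 ± 0.14 (adjusted p = 0.265). Apob was 125, 152 and 102 against 86.3, 83.4 and 88.5 CPM, also without overlap, at -0.61 ± 0.16 (adjusted p = 0.325). Pfkfb3 was 36.7, 44.8 and 21.9 against 18.9, 17.2 and 16.6 CPM, at -1.03 ± 0.29 (adjusted p = 0.448). It passed by DESeq2 (adjusted p = 0.0302) and without Fpr2f/f replicate 3 (-1.30, adjusted p = 0.0106), and was -0.70 without Fpr2f/f replicate 2. With no filter on low counts, Pfkfb3, Apob and Myo15b all passed (adjusted p = 4.8e-07, 0.00166 and 0.00483). Areg (-0.35 ± 0.37, adjusted p = 0.857), Edn1 (-0.55 ± 0.30, adjusted p = 0.703) and Creb3l3 (-0.53 ± 0.38, adjusted p = 0.778) did not pass either. Fpr2f/f replicate 2 weighs on these values, since without it Areg was -0.06, Edn1 -0.15, Creb3l3 -0.16 and Apob -0.38. Areg was -0.62 without Fpr2f/f replicate 3, -0.60 without Fpr2VKO replicate 1 and -0.22 without Fpr2VKO replicate 3, and Creb3l3 was -0.81 without Fpr2VKO replicate 1 and -0.32 without Fpr2VKO replicate 2. Groups did not overlap for 12.7% of the genes tested in the window.

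Gene groups under the genotype contrast in members are given beside the shares over all genes, of which 0.247% were called, 50.3% had log2 values above 0 and 49.7% below 0. At that share of calls a list of the size of those below would hold about no call, so a count of none is no result about a list. Of 24 genes of fat absorption, 16 of brush border hydrolases and 15 of microvilli, none passed, with median log2 values of -0.12, -0.15 and -0.21 beside 0.00 over all genes. Krt20 was 654, 522 and 536 CPM against 362, 366.5 and 437 CPM, without overlap, at -0.60 ± 0.16 (adjusted p = 0.177). All 12 transit-amplifying markers had values above 0 (median 0.50), as did 16 of 19 cell cycle genes (median 0.35), and none passed. These lists share genes, Mki67 and Top2a among them, so their counts are not independent. Paneth markers had 9 of 10 values above 0 (median 0.27) and stem cell markers 4 of 7 (median 0.00), of which Olfm4 was called. In the whole window, all 12 transit-amplifying, 10 stem cell and 10 Paneth markers had values above 0 (medians 0.26, 0.39 and 0.44), with none called. Top2a, which untangles DNA in dividing cells, was 121, 162 and 143.5 CPM against 191, 239 and 198 CPM (0.49 ± 0.16, adjusted p = 0.424). Of 15 hypoxia response genes, 12 had values below 0 (median -0.32), and Ero1l was the 1 called. Of 7 tuft cell markers, all had values above 0 (median 0.80), and of 7 enteroendocrine markers 6 had values below 0 (median -1.24), with none called. Antigen presentation genes had 11 of 12 values above 0 (median 0.24), with none called. For 6 transcripts abundant in shallow barcodes (Peak1, Gphn, Il31ra, Cdk8, Ccnb1ip1 and Lars2), all values were below 0 (median -0.49). They took 4.33% to 5.87% of member UMIs in Fpr2f/f and 2.59% to 4.68% in Fpr2VKO. These transcripts were picked from these samples. The study lists all of them but Gphn among the genes most lowered in its immature cells of Fpr2VKO mice. Their direction is therefore not independent evidence.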

How the data were processed

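The labels and the study's methods describe ileal crypt cells of Fpr2f/f and Fpr2VKO mice, sorted for EpCAM and run on a droplet platform, with reads aligned to mm10 and Seurat 4.0.0 used downstream. The authors deposited 6 matrices of raw UMI counts, each over 32285 genes and all barcodes, with no cell calling applied in the files. Counts were used as deposited. Doublets were scored with Scrublet in scanpy 1.11.5 and kept, with their removal as an alternative. The barcodes with the highest scores in a library were marked, in a number set by an assumed 0.8% of doublets per 1000 barcodes. UMI counts were summed over members in each library and tested with edgeR 4.0.16 (R 4.3.3), using the quasi-likelihood test with TMM normalization, filterByExpr and Benjamini-Hochberg adjustment, threshold 0.05. DESeq2 1.42.0 was an alternative. The interaction fit held library as a block. Shares used exact permutation tests in scipy 1.17.1. The study tested single cells, which was not done here. Members were set against other barcodes by log2 ratios of CPM + 5, while log2 values between genotypes and of the interaction are those of the fits. The SE given with an edgeR log2 value was derived as its absolute value divided by the square root of the F statistic. Thinning drew 1000 UMIs a barcode. Named genes were the called genes with the largest change (up to 10 each way) at a mean of 20 CPM or more without overlap of the groups, plus the rule genes and genes of the lists. For the description, they were the 15 highest and 10 lowest genes. Those that fell outside, such as Ptprc, were chosen after their values were seen. One gene called higher in Fpr2VKO members is not reported here by name, and the limit of 20 CPM on the genes drawn in the plot of UMIs held by lymphocyte-marked members was set after the values were seen, in part to leave it out; the counts of genes in the text include it. The members and the gene lists were chosen with earlier results of these data known. Gene coordinates came from GENCODE mouse release 21 (GRCm38, 32158 of 32285 IDs matched). No batch is given in the labels.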

Additional observations from a re-analysis of the deposited data

Results flagged for a closer look

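The genotype difference in members differed from that in the low-goblet rest for 4 of 13104 genes by an edgeR interaction test (0.0305%). The log2 difference was 0.92 for Mt1. For Ptprc it was 3.02 ± 0.43 (SE, adjusted p = 0.00821) and for Zeb1 2.02 ± 0.36 (adjusted p = 0.00821), and neither was called without the 12 lymphocyte-marked members, when Mt1 and Abcb1a were the 2 genes called. For Abcb1a, which encodes an efflux pump of the apical membrane, it was -0.81 ± 0.15 (adjusted p = 0.0182). Abcb1a was 156.5, 190.3 and 288 CPM in Fpr2f/f and 144, 140.4 and 175.5 CPM in Fpr2VKO members, and 92.9, 112 and 171 against 197, 132 and 137 CPM in the low-goblet rest, with overlap between the genotypes in both. Abcb1a was not called by DESeq2 (adjusted p = 0.168), without Fpr2f/f replicate 1, Fpr2f/f replicate 3, Fpr2VKO replicate 1 or Fpr2VKO replicate 2 (0.0681 to 0.243), or against Fabp6-high barcodes, where its log2 difference was -0.02 (adjusted p = 0.994). Ptprc was not called without Fpr2f/f replicate 1 or 3 (0.0746 and 0.0681), nor Zeb1 by DESeq2 (0.114) or without Fpr2f/f replicate 2 (0.0592).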

How the results depend on the processing

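Between genotypes, Mt1 kept its direction and its call in members in all 22 alternatives (log2 2.48 to 3.02), and the difference in member share stayed negative in its 18 alternatives. The other counts moved with the setting. For genes called in members (23), the count was 12 with 2 of 6 rule genes, 5 with 4 of 6, 1 with a mitochondrial limit of 10% (1502 genes tested), 57 with a limit of 40%, 72 with no filter on low counts, 2 after thinning to 1000 UMIs, 4 without lymphocyte-marked members, 5 without both kinds, and 9 to 50 with 1 library left out (9 without Fpr2VKO replicate 1, 50 without Fpr2f/f replicate 2). For the window (1), it was 27 by DESeq2, 258 with no filter and 2 to 43 with 1 library left out (43 without Fpr2VKO replicate 3). For the interaction (4), it was 2 by DESeq2, 11 against Fabp6-high barcodes, 19 with no filter, 2 without lymphocyte-marked members and 3 to 17 with 1 library left out (17 without Fpr2VKO replicate 1 or Fpr2f/f replicate 2). Olfm4 was -0.0533 in members at a mitochondrial limit of 10%, where the Fpr2VKO libraries kept 6 to 18 members. The interaction of Zeb1 was -0.30 without lymphocyte-marked members. With 1 library left out, the difference in median UMIs ran from -131 to 777 and that in enterocyte marker UMIs from -0.0755 to 0.136 percentage points. The causes were not tested. With the library number as a replicate block, 26 genes were called in members, 19 of them shared with the 23, and 6 in the window. Same-numbered libraries had correlations of deviations of -0.06, 0.05 and 0.19 in members. With 3 libraries per genotype these cannot tell whether the numbers pair libraries, and the labels do not say. Alternatives on the lymphocyte-marked and Apoa4-rich members were chosen after seeing the data. Depth limits the sums: the 5 libraries other than Fpr2f/f replicate 2 hold 166 to 378 members.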
